A study of Mus musculus with 6 samples.

Results

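The genes for the core proteins of the spliceosome and for the proteins that steer its choice of exons were examined in the newborn mouse lens after loss of Celf1. They were chosen by symbol from the deposited expression table, as all genes of the Snrp, Sf3a, Sf3b, U2af, Prpf, Srsf, Tra2, Srrm, Hnrnp, Ptbp, Rbfox and Nova families. The choice gave 80 of the 13931 genes in the table. RNA-sequencing had been performed on whole lenses at stage P0, for which a pair of lenses was pooled per library, with 3 libraries of control and 3 of Celf1cKO animals. Celf1cKO animals carried 1 germline knockout allele (Celf1lacZKI), 1 conditional allele with exon 5 between loxP sites (Celf1flox) and the Pax6GFPCre transgene, which is active in the lens from the placode stage on. The labels give the controls as Celf1lacZKI/+, so that both groups would share the germline knockout allele, while the study's methods use Celf1flox animals that lack Cre as the usual control. Which of these applied could not be settled from the sources used here, and it bears on each difference given.

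Splicing is carried out by small nuclear ribonucleoproteins (snRNPs), each built around a short RNA and a ring of Sm or LSm proteins, together with many helper proteins that recognize, activate and rearrange the splice sites. SR proteins mostly promote the use of an exon and hnRNPs mostly repress it, while PTB, RBFOX and NOVA proteins set tissue-specific patterns, several of them best known from neurons and muscle. CELF1 is itself an RNA-binding protein that acts both on splicing and, through GU-rich elements in 3′ UTRs, on mRNA decay and translation. In the lens, the fiber cells elongate, fill with crystallins and later lose their nuclei, so that their mRNA supply depends heavily on regulation after transcription.

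The Celf1 level itself was examined first, as a check of the labels. Celf1 was at log2 CPM (read counts scaled to library size, on the log2 scale) of 9.95, 9.94 and 9.34 in the control libraries and 8.93, 7.66 and 7.83 in the Celf1cKO libraries. The count covers the whole gene and not exon 5 alone. The groups did not overlap, and the log2 fold-change was -1.60 ± 0.33 (SE, n = 3 per group, limma, adjusted p = 0.0269). Each library held between 40694454 and 44387151 counted reads. Crystallin genes took 45.8% to 46.9% of the reads in the control and 34.7% to 38.5% in the Celf1cKO libraries. The summed level of 9 lens fiber markers ranged from 270000 to 307000 CPM in control and from 217000 to 228000 CPM in Celf1cKO lenses, that of 6 lens epithelium markers from 535 to 557 and from 170 to 456 CPM. The fiber list includes the crystallin genes Crygc, Cryaa and Cryba1. Of the 9 fiber markers 4 were called reduced, and of the 6 epithelium markers 1, beside 2.63% of all genes. The summed level of 3 mesenchyme markers was 76.9 to 108 CPM in control and 17.5 to 61.5 CPM in Celf1cKO lenses, with 1 gene called reduced, and that of 3 proliferation markers 82.8 to 136 and 32.1 to 85.6 CPM, with none called. The part of these differences in the values of the splicing genes was not tested. In such bulk samples, fewer cells of a type and less RNA per cell cannot be told apart.

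Of the 80 genes, 6 passed all criteria for a changed gene, namely an adjusted p under 0.05 over all genes (limma with Benjamini-Hochberg adjustment), a log2 fold-change beyond 0.58 up or down, and a mean expression of more than 1 in log2 CPM. The PTB proteins Ptbp2 and Ptbp3, the exon regulator Rbfox2 and the second-step splicing factor Prpf18 were elevated, while Hnrnph3, an hnRNP of the H family, and Rbfox3, known as the neuronal nuclear antigen NeuN, were reduced in Celf1cKO lenses. The 6 genes make up 7.5% of the 80, near the 7.39% called among all genes of the table (1030 genes). Only genes above the expression cut-off can be called, which were 76 of the 80 and 10640 of all genes. Of these 10640 genes, 9.68% were called. In the table as a whole, 4.77% of the genes were called elevated (664 genes) and 2.63% reduced (366 genes), against 4 and 2 of the 80. The count of 6 rests on every library but Celf1cKO replicate 1. It was 4 without control replicate 1 and 0 when control replicate 2, control replicate 3, Celf1cKO replicate 2 or Celf1cKO replicate 3 was left out, where the calls among all genes fell to 1, 438, 436 and 1.

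Without the cut-offs on fold-change and level, 10 of the 80 genes had an adjusted p under 0.05 (12.5%), against 11.9% of all genes (1655). Among the 10640 genes with a mean expression of more than 1 in log2 CPM, the share was 14.6%. The 4 additional genes were Snrpb, Snrpd1, Snrpn and Srsf12, all higher in Celf1cKO lenses. Of the 80 genes, 50 were higher and 30 lower in Celf1cKO lenses by their mean, with 42 higher after quantile normalization and 72 after scaling by total counted reads. Of all 13931 genes, 6467 were higher, with 7007 after quantile normalization and 9251 after scaling by total counted reads. The median log2 fold-change was 0.08 over the 80 genes, beside 0.00 over the 10640 genes of the table that reached this mean expression. The differences were small for most of the 80 genes: among the 76 that reached it, the median size of the log2 fold-change was 0.14, beside 0.26 over the 10640 genes, and 90.8% lay within 0.58, beside 80.5%. Nova2, Snrpn, Srsf12 and Srrm4 were too low. The 76 genes and the 10640 genes were not matched for expression level, and the part of level in these sizes was not tested.

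**Figure D1:**
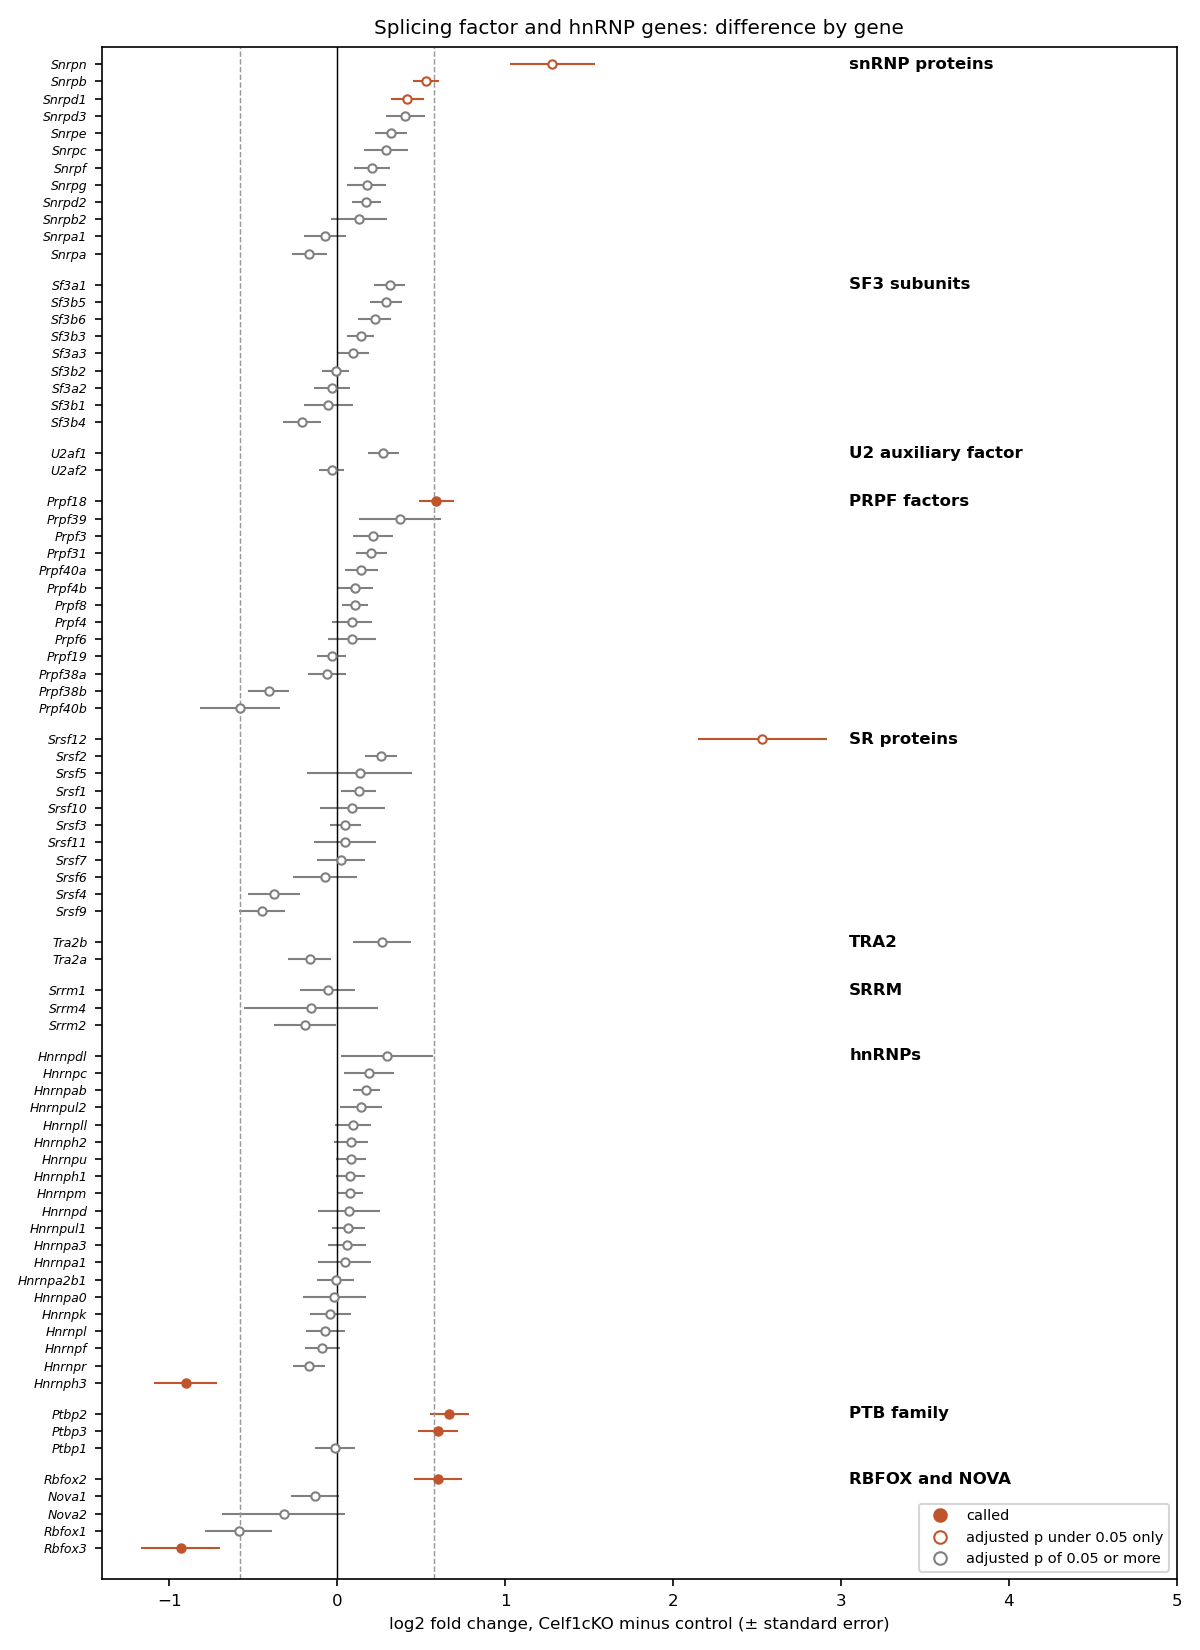
Log2 fold-change of each of the 80 genes (horizontal axis, Celf1cKO minus control, with its standard error, 3 libraries per group), grouped by role. Filled points mark the 6 genes called, open coloured points the 4 further genes with an adjusted p under 0.05, and dashed lines the cut-off of 0.58, within which most genes lie.

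The 3 Celf1cKO values lay above all 3 control values for 21 of the 80 genes (26.2%), beside 19.5% of all genes, and below them for 5 genes (6.25%), beside 17% of all genes. Among the 10640 genes above the expression cut-off, 23.1% lay above and 16.9% below. These shares depend on the scaling of the libraries. With quantile normalization, 17 of the 80 genes (21.2%) lay above, beside 19.6% of all genes, and without control replicate 1 it was 30 genes (37.5%), beside 23%. Scaling by total counted reads gave 43 genes (53.8%) above, beside 35.1% of all genes, and 3 below. In that scaling, which sets aside the normalization of the deposited values, the median of the 10640 genes moved to a log2 fold-change of 0.23, and that of the 80 genes to 0.31. The part of the larger share of crystallin reads in the control lenses in this shift was not tested. The summed level of the 80 genes was 6972 ± 433 CPM (SD, n = 3) in the control and 7232 ± 545 CPM (SD, n = 3) in the Celf1cKO libraries, and the ranges overlapped. As a share of all counted reads, the 80 genes took 0.58% to 0.697% in the control and 0.755% to 0.830% in the Celf1cKO libraries.

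GU-rich sequence in the 3′ UTR is the kind of element that CELF1 is known to bind, and 1 such stretch is therefore shown for Ptbp2, Ptbp3 and Rbfox2 of the elevated genes and for Snrpb, the gene with the smallest p among the 80. Each line gives 30 bases of the GRCm38 genome, read 5′ to 3′ on the strand of the transcript and taken from GENCODE M21 transcripts, with the 7-letter motif TGTTTGT in capitals.
Ptbp2, chr3:119719579-119719608, minus strand: aagtaatgtctTGTTTGTggctgaatattt
Ptbp3, chr4:59472304-59472333, minus strand: attcccttttcTGTTTGTaaggatgttcat
Rbfox2, chr15:77081268-77081297, minus strand: tgtagtgaaaaTGTTTGTctggatgttcct
Snrpb, chr2:130171840-130171869, minus strand: taccacagaccTGTTTGTttgttatgcagt

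The motif was searched on the transcript strand in 1 transcript per gene with a 3′ UTR of at least 50 bases, with overlapping matches counted, and the choice of the motif and of the genes shown was made with the differences known. All 4 elevated genes held it, Ptbp2, Ptbp3 and Rbfox2 at 1 place each, while neither Hnrnph3 nor Rbfox3 did. Most of the splicing genes that held it were not called, among them Hnrnpr with 8 matches, Hnrnpd with 4 and Prpf38b with 2. It was present in 19 of 50 splicing genes with a positive difference (38%) and 8 of 29 with a negative one (27.6%). The 4 elevated genes had long 3′ UTRs, with a median of 3611.5 bases beside 1010 bases for all genes. The motif was present in 27% of all genes searched (3439 of 12729), in 34.2% of the splicing genes (27 of 79), in 43.1% of all genes called elevated (278 of 645, median 3′ UTR 1395 bases) and in 25.9% of all genes called reduced (89 of 343, median 1291 bases). Snrpb and Snrpd1 each held 2 matches in short 3′ UTRs of 298 and 360 bases, whereas Snrpn, Srsf12 and Ptbp1 held none. The 2 matches of Snrpb start at bases 75 and 79 of its 3′ UTR and overlap, and only the first is in capitals above. A match to these letters is a description of the sequence and does not show that a protein binds there.

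**Figure D2:**
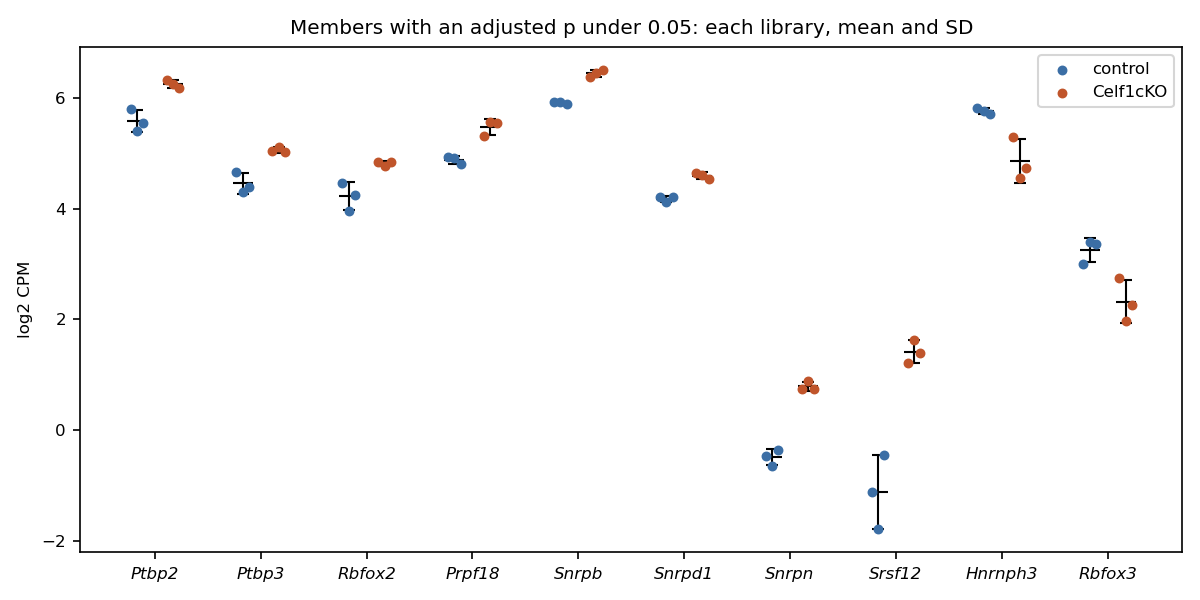
Log2 CPM of the 10 genes with an adjusted p under 0.05 in each of the 3 control and 3 Celf1cKO libraries, with the mean and SD of each group. For each of the 10 genes the points of the 2 groups are separate, and the 2 genes at the right, Hnrnph3 and Rbfox3, are the ones with lower values in Celf1cKO lenses.

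Of the 3 PTB genes, 2 were called (66.7%), beside 7.39% of all genes and 9.68% of those above the expression cut-off. This was the highest share among the role groups, in a group of only 3 genes. With median centring or quantile normalization, Ptbp2 alone of the PTB genes was called. PTB proteins bind pyrimidine-rich RNA and mostly repress exons. Ptbp1 is the widely expressed form, Ptbp2 replaces it as neurons differentiate, and Ptbp3 was first found in blood cells. Ptbp2 (GRCm38, chromosome 3, 119718742 to 119784466) stood at log2 CPM of 5.80, 5.40 and 5.55 in the control and 6.33, 6.25 and 6.17 in the Celf1cKO libraries. All Celf1cKO values were above all control values, and the level was 1.59-fold higher (log2 fold-change 0.67 ± 0.12 SE, n = 3 per group, limma, adjusted p = 0.0174). Ptbp3 (chromosome 4, 59471868 to 59549364) stood at 4.67, 4.31 and 4.40 in the control and 5.04, 5.12 and 5.02 in the Celf1cKO libraries, again without overlap. Its level was 1.52-fold higher (log2 fold-change 0.60 ± 0.12 SE, n = 3 per group, limma, adjusted p = 0.0232), with 0.578 and 0.564, just under the cut-off, after median centring and quantile normalization.

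Ptbp1 was the most abundant PTB mRNA in both groups and its values overlapped. It stood at log2 CPM of 7.04, 6.77 and 6.93 in the control and 7.10, 6.75 and 6.86 in the Celf1cKO libraries, a log2 fold-change of -0.01 ± 0.12 (SE, n = 3 per group, limma, adjusted p = 0.964). Per kb of exon, Ptbp1 was at 25.5 ± 2.37 CPM (SD, n = 3) in control lenses, Ptbp2 at 5.25 ± 0.748 and Ptbp3 at 2.95 ± 0.397, in that order without overlap of the spreads. The ratio of Ptbp2 to Ptbp1 was therefore computed within each library, where the scaling of the library drops out. The log2 of this CPM ratio was -1.24, -1.37 and -1.38 in the control and -0.78, -0.50 and -0.69 in the Celf1cKO libraries, so that Ptbp2 went from 39.7% to 63.6% of the Ptbp1 level in CPM. The groups did not overlap, with a difference of 0.68 in log2 (two-sided exact permutation test, p = 0.1, and no smaller p can be reached with 3 libraries per group). For Ptbp3 the ratio went from 18.2% to 27.9%, a difference of 0.61 in log2 (two-sided exact permutation test, p = 0.1).

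The RBFOX proteins bind a common short RNA motif around alternative exons, and of the 3 genes 1 was called elevated and 1 reduced. Rbfox2, the family member expressed in most tissues (chromosome 15, 77078990 to 77307004), was at log2 CPM of 4.46, 3.96 and 4.25 in the control and 4.85, 4.77 and 4.85 in the Celf1cKO libraries. The values did not overlap and were 1.52-fold higher in Celf1cKO lenses (log2 fold-change 0.60 ± 0.14 SE, n = 3 per group, limma, adjusted p = 0.0376). The log2 fold-change of Rbfox2 was under the cut-off with log2(CPM + 1), median centring and quantile normalization, at 0.577, 0.578 and 0.568, and its adjusted p was 0.0512 when the libraries were rescaled without the crystallin genes. Rbfox3, which is characteristic of mature neurons (chromosome 11, 118489762 to 118911597), was at 2.997, 3.41 and 3.36 in the control and 2.74, 1.97 and 2.26 in the Celf1cKO libraries. It was lower in all Celf1cKO libraries (log2 fold-change -0.93 ± 0.23 SE, n = 3 per group, limma, adjusted p = 0.0445). With the replicate number as a block the adjusted p of Rbfox3 was 0.0551, so that it was no longer called.

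Rbfox1, the form best known from neurons, heart and muscle, was low, with 162 to 234 reads in the control and 149 to 167 reads in the Celf1cKO libraries. Its log2 CPM values were 2.10, 2.43 and 2.58 in the control and 1.93, 1.64 and 1.78 in the Celf1cKO libraries. The values did not overlap, but the difference of -0.59 ± 0.20 (log2, SE, n = 3 per group) did not pass the test (limma, adjusted p = 0.102). The summed level of 7 retina and neuron markers, among them Elavl3, Snap25 and Rcvrn, was low and lower in part of the Celf1cKO libraries, with 8.05 to 28.6 CPM in control and 3.62 to 15.5 CPM in Celf1cKO lenses, and 1 of the 7 genes was called reduced. The part of such cells in the Rbfox1 and Rbfox3 values was not tested. The NOVA proteins, neuronal regulators that bind YCAY repeats, were not called. Nova1 was at 4.41, 4.84 and 4.70 in the control and 4.35, 4.64 and 4.57 in the Celf1cKO libraries (log2 fold-change -0.13 ± 0.14 SE, n = 3 per group, limma, adjusted p = 0.578), and Nova2 held only 36 to 94 reads in the control and 49 to 62 reads in the Celf1cKO libraries.

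Among the hnRNPs, which coat nascent transcripts and include the most abundant RNA-binding proteins of the nucleus, 1 of 20 genes was called. Hnrnph3 (chromosome 10, 63014664 to 63024217) stood at log2 CPM of 5.82, 5.76 and 5.71 in the control and 5.30, 4.55 and 4.73 in the Celf1cKO libraries. The control values lay close together and above all Celf1cKO values, of which replicate 1 was the highest. The level in Celf1cKO lenses was 0.535 times that in control lenses (log2 fold-change -0.90 ± 0.19 SE, n = 3 per group, limma, adjusted p = 0.0258). Rufy2, a gene on the opposite strand that overlaps Hnrnph3, had a log2 fold-change of 0.01 ± 0.11 (SE, n = 3 per group).

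None of the close relatives of Hnrnph3, which bind G-rich sequence, was called. Hnrnph1 had a log2 fold-change of 0.08 ± 0.09, Hnrnph2 of 0.08 ± 0.10 and Hnrnpf of -0.09 ± 0.10 (SE, n = 3 per group), with overlapping values in each case. The other 19 hnRNPs lay between -0.17 for Hnrnpr and 0.30 for Hnrnpdl. Hnrnpk, which binds C-rich RNA, was the gene with the highest mean level per kb of exon among the 80, at 87.7 ± 10.9 CPM per kb (SD, n = 3) in control lenses. Its log2 CPM values of 9.25, 9.25 and 8.92 in the control and 9.27, 9.01 and 9.02 in the Celf1cKO libraries overlapped (log2 fold-change -0.04 ± 0.12 SE, n = 3 per group, limma, adjusted p = 0.858). Hnrnpa1 and Hnrnpa2b1, which followed in level with 73.3 ± 8.63 and 59.5 ± 8.17 CPM per kb (SD, n = 3), had log2 fold-changes of 0.05 ± 0.16 and -0.01 ± 0.11 (SE, n = 3 per group).

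**Figure D3:**
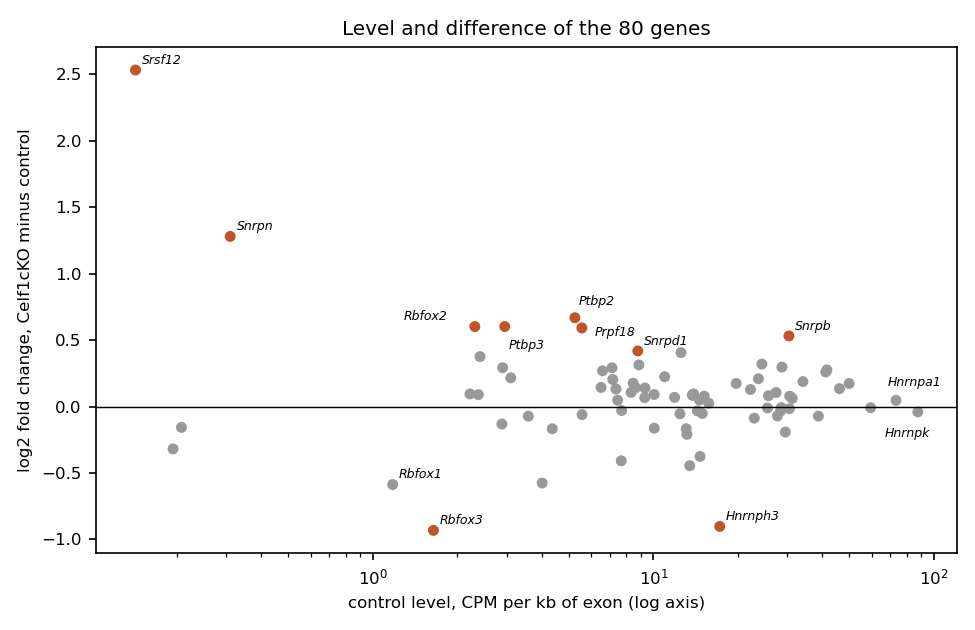
Log2 fold-change (vertical axis, Celf1cKO minus control) of the 80 genes against their level in control lenses in CPM per kb of exon (log axis), each point 1 gene. The 10 coloured genes have an adjusted p under 0.05, and the genes with the highest levels, Hnrnpk and Hnrnpa1, lie near 0.

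The Snrp genes encode the Sm proteins common to the spliceosomal snRNPs and the proteins specific to the U1 and U2 particles. None of the 12 passed the fold-change and level cut-offs, and the median log2 fold-change was 0.25. An adjusted p under 0.05 was reached by 3 of them (25%, beside 11.9% of all genes). Celf1cKO values lay above all control values for 8 of them (66.7%, beside 19.5% of all genes). Snrpb, which encodes the ring proteins SmB and SmB′ (chromosome 2, 130171414 to 130179403), was at log2 CPM of 5.92, 5.93 and 5.88 in the control and 6.38, 6.45 and 6.50 in the Celf1cKO libraries. The spread within each group was small, and Snrpb was 1.45-fold higher in Celf1cKO lenses (log2 fold-change 0.53 ± 0.08 SE, n = 3 per group, limma, adjusted p = 0.012). Snrpd1, for SmD1, was at 4.22, 4.11 and 4.20 in the control and 4.64, 4.62 and 4.53 in the Celf1cKO libraries and was 1.34-fold higher (log2 fold-change 0.42 ± 0.10 SE, n = 3 per group, limma, adjusted p = 0.0376).

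The proteins of the Sm ring, which together close around the snRNA, are encoded by Snrpb, Snrpd1, Snrpd2, Snrpd3, Snrpe, Snrpf and Snrpg, and they were set apart here as a group after their values were seen. All 7 log2 fold-changes were positive, from 0.17 to 0.53 with a median of 0.32. For 6 of the 7 genes (85.7%, beside 19.5% of all genes) the Celf1cKO values lay above all control values, the exception being Snrpg. With quantile normalization this held for 5 of the 7 genes (71.4%), beside 19.6% of all genes. Snrpd3, for SmD3, was at log2 CPM of 5.63, 5.39 and 5.27 in the control and 5.94, 5.77 and 5.80 in the Celf1cKO libraries, and Snrpe, for SmE, at 5.16, 5.07 and 4.96 and at 5.42, 5.42 and 5.30. Snrpd3 (0.41 ± 0.12 SE, limma, adjusted p = 0.0625) and Snrpe (0.32 ± 0.10 SE, limma, adjusted p = 0.0718), with 3 libraries per group, were close to the threshold, and Snrpd3 passed it with the replicate block (adjusted p = 0.0375). All 7 were positive under each scaling and with each library left out, where the median ranged from 0.26 with quantile normalization to 0.55 with total-count scaling. The group was set apart on the values of these same libraries, so the kept signs are no independent support. Over all expressed genes, the median log2 fold-change was 0.06 for the 609 with under 1500 bases of exon, as Snrpe and Snrpf have, 0.04 for those from 1500 to 3000 bases, as Snrpb, Snrpd1, Snrpd2 and Snrpg have, and -0.01 for those with 6000 or more, and the part of transcript length in the Sm values was not tested. Of the genes for U1 and U2 proteins, Snrpc was at 0.29 ± 0.13 with Celf1cKO values above all control values, Snrpa at -0.17 ± 0.10, Snrpa1 at -0.07 ± 0.13 and Snrpb2 at 0.13 ± 0.17 (log2 fold-change, SE, n = 3 per group), and none of the 4 passed the test.

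**Figure D4:**
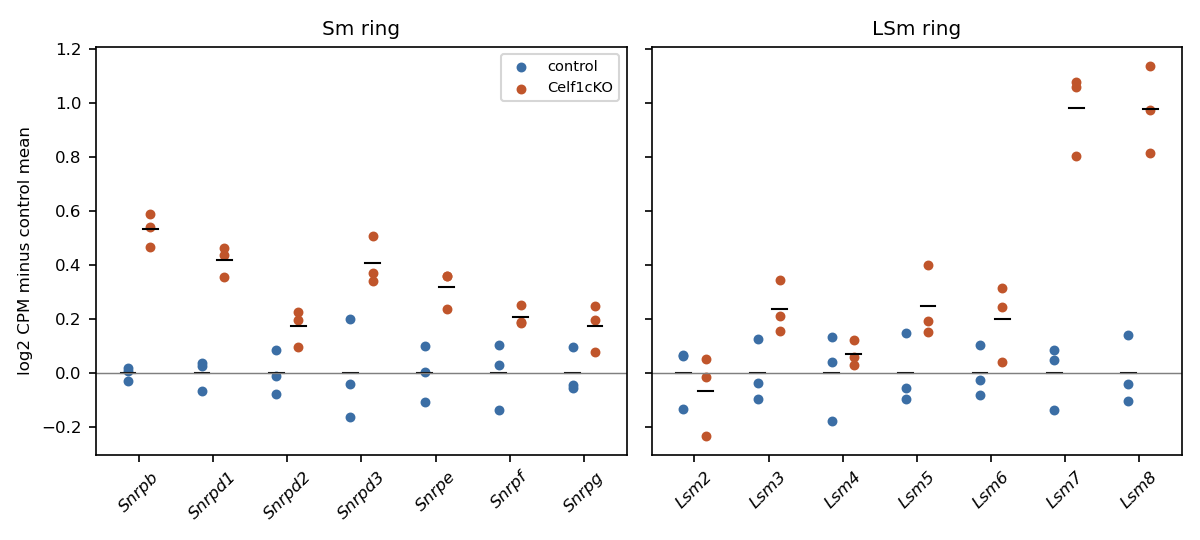
Log2 CPM minus the control mean for the 7 Sm ring genes (left) and the 7 LSm ring genes (right), with 1 point per library and a line at each group mean. Celf1cKO points lie above all control points for 6 of the 7 Sm genes (85.7%, beside 19.5% of all genes). The same holds for 4 of the 7 LSm genes (57.1%), among which Lsm7 and Lsm8 have the largest differences.

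The LSm proteins form the related ring on U6 snRNA, and their genes belonged to a list of other splicing genes, of which 99 were in the table and Isy1, Gemin4 and Wdr77 were not. Of these 99 genes, 4 were called elevated and 1 reduced, and 8 had an adjusted p under 0.05, which is 5.05% called and 8.08% with an adjusted p under 0.05, below the shares of all genes. Their median log2 fold-change was 0.07. Lsm7 stood at log2 CPM of 3.74, 3.71 and 3.52 in the control and 4.46, 4.73 and 4.72 in the Celf1cKO libraries without overlap (log2 fold-change 0.98 ± 0.13 SE, n = 3 per group, limma, adjusted p = 0.0101). Lsm8, the subunit that makes the ring nuclear, was at 3.43, 3.62 and 3.37 in the control and 4.29, 4.61 and 4.45 in the Celf1cKO libraries (log2 fold-change 0.98 ± 0.13 SE, n = 3 per group, limma, adjusted p = 0.0107). The other 5 LSm genes, Lsm2 to Lsm6, lay between -0.06 and 0.25 and did not pass the test. Of the 7 LSm genes, 6 had a positive log2 fold-change, and the median was 0.24, beside 0.32 for the Sm ring. For 4 of the 7 (57.1%, beside 19.5% of all genes) the Celf1cKO values lay above all control values. With median centring it was 3 of the 7 (42.9%), beside 18.1% of all genes. Pqbp1, a splicing factor that binds the U5 protein encoded by Txnl4a, had the largest difference among the 99, at 4.83, 4.79 and 5.12 in the control and 5.94, 6.32 and 6.21 in the Celf1cKO libraries (log2 fold-change 1.24 ± 0.14 SE, n = 3 per group, limma, adjusted p = 0.00888). The 2 other genes called in this list were Ik, elevated by 0.90, and Wbp4, which fell by 0.63 on the log2 scale.

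Snrpn encodes SmN, a close relative of SmB that is best known from brain and heart, and its locus (chromosome 7, 59982495 to 60140219) is imprinted. It was hardly expressed, with 22 to 29 reads in the control and 70 to 88 reads in the Celf1cKO libraries. The log2 CPM values of -0.46, -0.65 and -0.35 in the control and 0.75, 0.89 and 0.74 in the Celf1cKO libraries did not overlap (log2 fold-change 1.28 ± 0.25 SE, n = 3 per group, limma, adjusted p = 0.0228), and with log2(CPM + 1) the difference was 0.69. The level per kb of exon was 0.310 CPM in control lenses, beside 30.4 CPM for Snrpb. Snrpn shares its transcripts with Snurf, which is annotated on the same strand, so the assignment of these reads is uncertain.

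Of the SR proteins, which bind exonic enhancers through RRM domains and recruit the U1 and U2 particles, none of 11 was called. Srsf12, a tissue-restricted and mostly repressive member (chromosome 4, 33208991 to 33233340), had the largest fold-change of the 80 genes and rose from a very low level. It held 9 to 27 reads in the control and 98 to 148 reads in the Celf1cKO libraries. Its log2 CPM values were -1.11, -1.79 and -0.45 in the control and 1.22, 1.63 and 1.40 in the Celf1cKO libraries, a 5.79-fold difference (log2 fold-change 2.53 ± 0.38 SE, n = 3 per group, limma, adjusted p = 0.0133). The size depends on the prior count at such low reads, and with log2(CPM + 1) the log2 fold-change was 1.34. At 0.142 CPM per kb in control and 0.839 CPM per kb in Celf1cKO lenses, it stayed far below the other SR genes, and its average log2 CPM of 0.69 kept it from being called.

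The 10 other SR genes had log2 fold-changes between -0.44 and 0.26 and none passed the test. Srsf9 had the most negative difference among them, at 4.60, 4.40 and 4.43 in the control and 4.24, 3.84 and 4.02 in the Celf1cKO libraries (log2 fold-change -0.44 ± 0.14 SE, n = 3 per group, limma, adjusted p = 0.0768), and it passed with the replicate block (adjusted p = 0.0444). Srsf2, which binds exonic enhancers in many transcripts, had the most positive one, at 6.97, 6.75 and 7.05 in the control and 7.22, 7.15 and 7.18 in the Celf1cKO libraries (log2 fold-change 0.26 ± 0.10 SE, n = 3 per group, limma, adjusted p = 0.12). Srsf5 had the highest mean of the SR genes per kb of exon in control lenses, at 46.1 ± 14.7 CPM (SD, n = 3). Srsf2 at 41.2 ± 4.35 and Srsf6 at 38.7 ± 7.64 lay within this spread. Srsf5 varied widely within both groups. It was at 7.94, 7.004 and 7.47 in the control and 8.23, 7.22 and 7.38 in the Celf1cKO libraries, and its log2 fold-change of 0.13 ± 0.31 (SE, n = 3 per group) was smaller than this spread. The TRA2 proteins, relatives of the SR proteins, gave 0.27 ± 0.17 for Tra2b and -0.16 ± 0.13 for Tra2a, and the SRRM coactivators gave -0.19 ± 0.18 for Srrm2, -0.05 ± 0.16 for Srrm1 and -0.16 ± 0.40 for the neuronal Srrm4 (log2 fold-change, SE, n = 3 per group), with overlapping values for each of the 5 genes.

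The PRPF factors act mainly in the U4/U6.U5 tri-snRNP and in the catalytic steps, and 1 of 13 was called. Prpf18, which acts in the second step of splicing (chromosome 2, 4622058 to 4652113), was at log2 CPM of 4.93, 4.92 and 4.80 in the control and 5.31, 5.57 and 5.54 in the Celf1cKO libraries. The values did not overlap and the level was 1.51-fold higher (log2 fold-change 0.59 ± 0.10 SE, n = 3 per group, limma, adjusted p = 0.0176), just past the fold-change cut-off. With log2(CPM + 1), median centring, quantile normalization or rescaling without the crystallin genes its log2 fold-change was between 0.528 and 0.576 and it was not called. Prpf40b, a partner of the U1 particle, lay just inside the cut-off on the other side, with 4.20, 3.84 and 4.76 in the control and 3.93, 3.58 and 3.56 in the Celf1cKO libraries (log2 fold-change -0.58 ± 0.24 SE, n = 3 per group, limma, adjusted p = 0.156). Prpf38b, a relative of a tri-snRNP protein, had values below all control values, with 5.76, 5.56 and 5.88 in the control and 5.51, 5.24 and 5.22 in the Celf1cKO libraries, and did not pass the test either (log2 fold-change -0.41 ± 0.12 SE, n = 3 per group, limma, adjusted p = 0.0746). The median log2 fold-change of the 13 genes was 0.11. Prpf8, the large protein at the centre of the spliceosome and the most abundant of the group per kb of exon, had a log2 fold-change of 0.11 ± 0.08 (SE, n = 3 per group).

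None of the 9 SF3 subunits, which hold the U2 particle on the branch site, and neither of the U2AF genes, which recognize the end of the intron, passed the test. Sf3a1 was highest in difference, at 5.78, 5.79 and 5.74 in the control and 5.98, 6.05 and 6.22 in the Celf1cKO libraries (log2 fold-change 0.31 ± 0.09 SE, n = 3 per group, limma, adjusted p = 0.0655). Sf3b5, a small subunit of SF3B, was at 4.68, 4.81 and 4.84 in the control and 5.03, 5.11 and 5.06 in the Celf1cKO libraries (log2 fold-change 0.29 ± 0.09 SE, n = 3 per group, limma, adjusted p = 0.0834). With Sf3b3 and Sf3b6, these were the 4 SF3 genes whose Celf1cKO values lay above all control values (44.4%, beside 19.5% of all genes). The median log2 fold-change of the 9 genes was 0.10. Sf3b1, the subunit that contacts the branch site, gave -0.05 ± 0.15 and Sf3b2, the most abundant SF3 mRNA per kb of exon, -0.01 ± 0.08 (log2 fold-change, SE, n = 3 per group). U2af1, for the small U2AF subunit, was at 6.88, 6.70 and 6.68 in the control and 6.99, 7.13 and 6.96 in the Celf1cKO libraries, without overlap (log2 fold-change 0.28 ± 0.09 SE, n = 3 per group, limma, adjusted p = 0.0914), while U2af2, for its partner, gave -0.03 ± 0.08 with overlapping values.

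**Figure D5:**
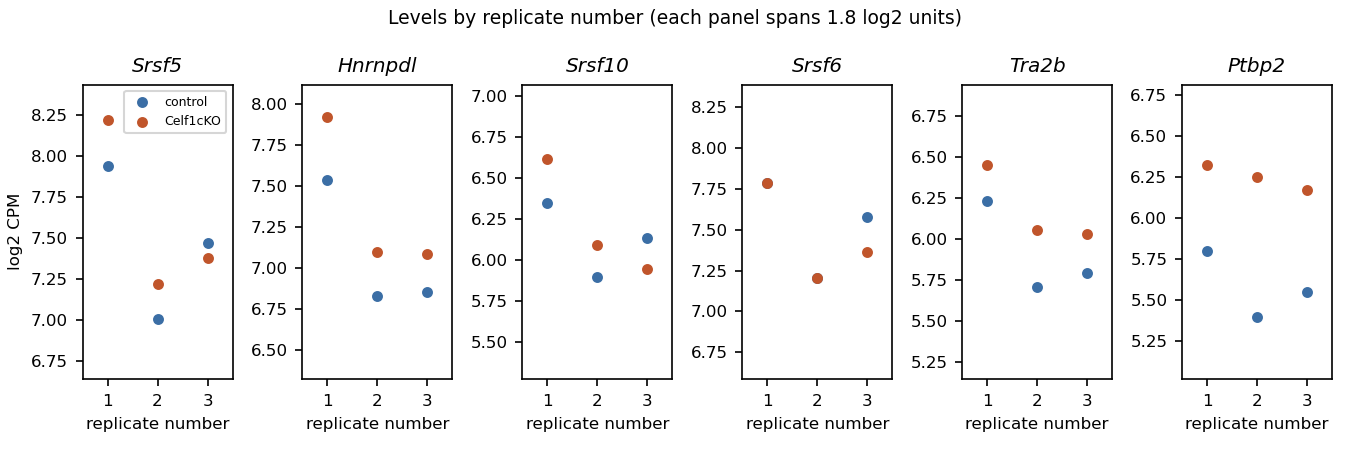
Log2 CPM of 6 genes by replicate number, with control and Celf1cKO libraries as separate points and each panel spanning 1.8 log2 units. All 6 genes, Srsf5, Hnrnpdl, Srsf10, Srsf6, Tra2b and Ptbp2, are highest in replicate 1 of both groups. Only for Ptbp2 do all Celf1cKO values lie above all control values.

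The spread between libraries that limits these comparisons was shared by many of the 80 genes. In both groups, 34 of the 80 genes (42.5%) had their highest value in replicate 1, beside 16.5% of the 10640 expressed genes. For replicate 2 it was 4 of the 80 genes (5%), beside 20.5%, and for replicate 3 none of the 80, beside 6.74%. Over the 80 genes, the deviations of same-numbered libraries from their group means had correlations of 0.47, 0.19 and -0.19 for numbers 1, 2 and 3. Srsf5 stood 0.70 in log2 above the mean of the other libraries in control replicate 1 and 0.93 above it in Celf1cKO replicate 1, and Hnrnpdl 0.70 and 0.83. Srsf10, Srsf6, Tra2b, Hnrnpd and Srsf11 followed, with 0.34 to 0.49 in control and 0.41 to 0.60 in Celf1cKO replicate 1. The labels do not say what the replicate numbers stand for.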

How the data were processed

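RNA of P0 lenses was sequenced in 3 control and 3 Celf1cKO libraries, as strand-specific paired-end libraries. The authors aligned the reads to GRCm38.p6 with STAR 2.7.8a, retained reads with a unique position, assigned these to genes by featureCounts 2.0.0 and normalized the counts with edgeR. The strand setting of the counting is not given in the sources used here, and the loss of reads shared with near-identical copies by the unique mapping may lower the level of genes with many processed copies, such as Hnrnpa1. The deposited values of each library are log2 CPM with a prior count of 2 on average. The deposited average log2 CPM served as the expression cut-off. The authors' fold-change, F score, p-value and FDR columns, which hold their own comparison, were deposited in the same table and were not used. No column belonged to an unmapped sample (0 columns). Whole reads were worked back from 100% of the values within 0.05 of a read. Replicate samples are separate libraries, and p-values measure the spread between them.

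Groups were taken from the labels and compared with limma 3.58.1 in R 4.3.3 on the log2 CPM of all 13931 genes, with the prior variance following expression (prior degrees of freedom 3.4) and no block. Adjusted p-values are Benjamini-Hochberg values over all 13931 genes. The procedure was tested on simulated data. Same-numbered libraries deviated together over all genes (correlation of deviations 0.26, 0.39 and 0.38 for numbers 1, 2 and 3), which is a hint from the data and the shared label numbers, so a fit with the replicate number as a block was also made. The alternatives were this block, limma without the variance trend or with robust empirical Bayes, log2(CPM + 1), other expression, fold and p cut-offs, 4 other scalings, limma voom and each library left out. Exon lengths, positions and 3′ UTRs came from GENCODE M21 on GRCm38. The exon length of a gene is that of all its annotated exons merged, not of the transcript expressed. The members, the lists and the tests were chosen with earlier results of these data known. Named were all genes called, the 3 further genes with an adjusted p under 0.05 and the largest fold-change, the 3 largest rises and falls, the most abundant gene of each role, the PTB, RBFOX and NOVA genes and Celf1. The remaining genes named, the Sm ring group, the motif and the LSm genes that were not called were picked once the values were known. A gene of the fixed marker lists was left out of its sum, and 1 of the site sequences is not reported here. Plots were made by matplotlib 3.10.9 under Python 3.11.15.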

Additional observations from a re-analysis of the deposited data

How the results depend on the processing

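The count of 6 called genes was 0 without the variance trend and 0 at an adjusted p under 0.01, where 421 and 113 of all genes were called, and 3 with median centring and with quantile normalization, which keep Hnrnph3, Ptbp2 and Rbfox3. It was 4 with log2(CPM + 1) and with rescaling without the crystallin genes, where Ptbp3 was kept as well. With each library left out in turn it ranged from 0 to 6, beside 1 to 1916 among all genes. Among all genes, 992 were called with median centring, 1030 with quantile normalization, 998 with log2(CPM + 1) and 955 without the crystallin genes. The 10 genes with an adjusted p under 0.05 became 3 without the variance trend, 25 with total-count scaling and 0 to 14 with a library left out. Over all genes, the 1655 with an adjusted p under 0.05 became 3240 with total-count scaling and 1 to 3032 with a library left out. The 5 called genes among the other splicing genes ranged from 0 to 6 with a library left out. Total-count scaling moved the median log2 fold-change of the 80 genes from 0.083 to 0.309, and the ratio of their summed level in Celf1cKO to control lenses from 1.037 to 1.21, with the shift of all genes given above. With the replicate block, 5 of the 80 genes (6.25%) were called, beside 1279 of all genes (9.18%). Rbfox3 was lost (limma, adjusted p = 0.0551), Snrpd3 and Srsf9 gained an adjusted p under 0.05, and no other call among the 80 genes changed. Of the 17 genes recomputed under each alternative, which were Celf1, the 10 splicing genes with an adjusted p under 0.05, Rbfox1, Pqbp1, Ik, Lsm7, Lsm8 and Wbp4, none changed sign, while differences near 0, such as that of Ptbp1, depend on the scaling. All of these 17 but Rbfox1 had passed the test in these same libraries, so the kept signs are no independent support. The largest adjusted p (limma) over the alternatives lay between 0.0798 for Ptbp2 and 0.153 for Rbfox3 among the 6 called genes. limma voom on the recovered reads called the same 6 genes. The cause of these shifts was not tested. With 3 libraries per group, differences under the spread between libraries were not detectable.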
